A study of Homo sapiens with 82 samples.

Results

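The data described here compare acetylation of lysine 27 of histone H3 (H3K27ac) in HT29 cells after 24 h of GW3965 with that in HT29 cells given DMSO. Of the 82 samples in the series, 4 make up this comparison: 2 H3K27ac ChIP-seq libraries of DMSO-treated cells and 2 of cells treated with GW3965 for 24 h. They were picked by their labels alone, with no use of measured values. The series followed liver X receptor (LXR) and PPARG agonists in 1 cell line by ChIP-seq and RNA-seq, and the other libraries used here serve as annotation. HT29 is a human colorectal adenocarcinoma line, and GW3965 is a synthetic agonist of LXRA (NR1H3) and LXRB (NR1H2), given at 10 μM in DMSO. Before treatment, the cells of both groups were kept in phenol-red-free medium with charcoal/dextran-treated serum. How long the DMSO cells of ChIP-seq had been treated is not stated in the labels. Nothing in the sources used here says that the 2 replicates of a group came from separate cultures, so every p-value below measures only the spread between these libraries.

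H3K27ac is placed by the acetyltransferases EP300 and CREBBP on nucleosomes beside active promoters and enhancers, and histone deacetylases take it off. LXRs sit on DNA with a retinoid X receptor partner. Without ligand they hold corepressor complexes that carry HDAC3, and with an agonist they exchange these for coactivators, acetyltransferases among them. Their known target genes serve sterol efflux and fatty acid synthesis.

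Each library was available as a list of MACS peaks with a start, an end and a score on the hg19 build. The score is minus 10 times the log10 of the p-value of the peak against an input library, and no deposited peak scored below 100. A score therefore states how far a peak stood above its input and depends on sequencing depth, which is unknown for these libraries. Peaks of the 4 libraries that shared at least 1 bp were merged into 35090 H3K27ac sites, each with the score and the covered bases of every library that had a peak there. LXRB sites (antibody to the cells' own receptor) and LXRA sites came from cells treated with GW3965 for 2 h or 48 h. LXRA was read with a FLAG antibody in HT29 cells that carried a FLAG-tagged LXRA transgene and had been selected with G418, so these sites are those of an added copy; whether the cells were 1 clone is not stated. JunD, an AP1 subunit, was mapped in DMSO-treated cells, and RNA polymerase II (RNAP2) in DMSO-treated cells and after 24 h of GW3965. An annotated site had to be found in both replicates of its group.

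The 4 libraries did not sort by treatment. They held 23015 peaks for DMSO replicate 1, 27701 for DMSO replicate 2, 28701 for GW3965 replicate 1 and 26524 for GW3965 replicate 2. Median peak scores were 276 and 380 for the DMSO replicates and 429 and 283 for the GW3965 replicates. DMSO replicate 2 and GW3965 replicate 1 thus had the higher scores, and the other 2 libraries the lower ones. DMSO replicate 2 and GW3965 replicate 1 shared 78.4% of the sites found in either, more than any other pair of the 4. The DMSO replicates shared 71.5% of theirs, and the GW3965 replicates shared 59.0%, the lowest share of the 6 pairs. Over 13758 sites with a peak in all 8 H3K27ac libraries of DMSO, GW3965 at 24 h and 48 h and rosiglitazone at 24 h, the rank correlation of scores was 0.841 between DMSO replicates and 0.485 between GW3965 replicates. The same correlation was 0.885 between DMSO replicate 2 and GW3965 replicate 1. These values describe sites that share libraries and depth, not independent samples. By the headers of the peak lists, both DMSO libraries were called against 1 input and both GW3965 libraries against another, so input and drug cannot be told apart. The part of library quality in the results below was not tested, and values of each library are given beside them.

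**Figure D1:**
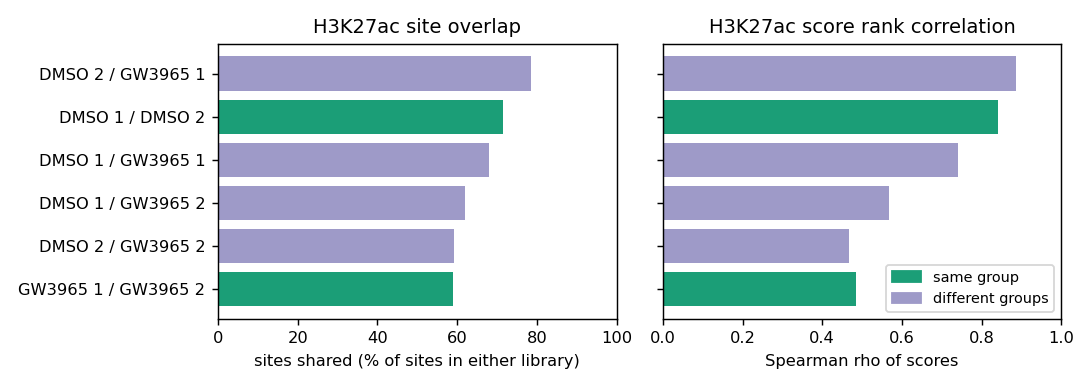
Similarity of the 4 H3K27ac libraries in pairs. Left, sites shared as a percentage of the sites found in either library of the pair. Right, Spearman rho of peak scores over 13758 sites. Green bars are pairs within a group and violet bars are pairs across groups; DMSO replicate 2 and GW3965 replicate 1 have the longest bar in both panels (78.4% and 0.885), while the GW3965 replicates share 59.0%.

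Most sites were found in every library or in a mix of libraries that did not follow the drug. All 4 libraries had a peak at 16069 sites (45.8% of 35090). Both GW3965 libraries and no DMSO library had a peak at 921 sites (2.62%), called GW3965-only sites below. Both DMSO libraries and no GW3965 library had a peak at 319 sites (0.909%), called DMSO-only sites. GW3965-only sites were thus the more frequent of these 2 patterns. Both were fewer than the 2661 sites shared by DMSO replicate 2 and GW3965 replicate 1 alone, a pattern that crosses the groups. The other crossed pattern, DMSO replicate 1 with GW3965 replicate 2 alone, had 609 sites. Peaks of a single library made up 206 sites for DMSO replicate 1, 1767 for DMSO replicate 2, 2019 for GW3965 replicate 1 and 4932 for GW3965 replicate 2. With 2 libraries against 2, no exact two-sided permutation test over libraries can give a p below 0.333, so presence was not tested.

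**Figure D2:**
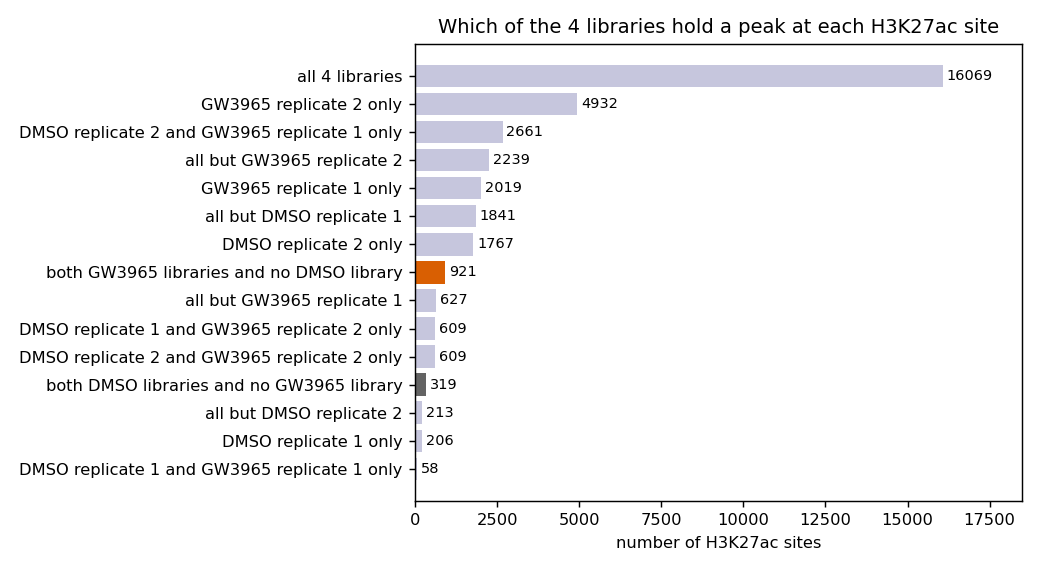
Number of H3K27ac sites by the libraries that had a peak there. Each of the 35090 merged sites is counted in 1 bar. The orange bar marks the 921 GW3965-only sites and the dark grey bar the 319 DMSO-only sites; 16069 sites had a peak in all 4 libraries and 2661 in DMSO replicate 2 and GW3965 replicate 1 alone.

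When a site had to be found in both replicates of its group, DMSO had 19892 sites and GW3965 had 19241. Of the GW3965 sites, 2996 (15.6%) overlapped no DMSO site and count as gained. Of the DMSO sites, 3199 (16.1%) overlapped no GW3965 site and count as lost. Losses and gains were nearly equal in number by this rule, but with the 23015 highest peaks of each library there were 1658 gained (10.3%) and 3945 lost sites. Of the 2996 gained sites, 1850 had a peak in DMSO replicate 2 that its partner lacked, 214 had one in DMSO replicate 1 alone and 921 had none in DMSO. Of the 3199 lost sites, 2252 had a peak in GW3965 replicate 1 alone, 624 in GW3965 replicate 2 alone and 319 had none in GW3965. Most sites counted as lost were thus still present in 1 GW3965 library. The gained count ran from 1138 without DMSO replicate 1 to 9259 without GW3965 replicate 1. The lost count ran from 1005 without GW3965 replicate 2 to 8363 without DMSO replicate 1.

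GW3965-only sites were narrow and weak. Their median width was 1757 bp, and that of DMSO-only sites was 1494 bp, against 3037 bp at sites of all 4 libraries. At GW3965-only sites the median score was 145 in GW3965 replicate 1 (quartiles 118 and 189) and 178 in GW3965 replicate 2 (quartiles 132 and 263). At DMSO-only sites the medians were 125 and 162 in DMSO replicates 1 and 2. Sites of all 4 libraries had medians of 367 and 727 in the DMSO replicates and 900 and 412 in the GW3965 replicates. The medians of GW3965-only and DMSO-only sites lie close to the deposited minimum of 100, and a library without a peak is one with no peak at or above that minimum, not one shown to lack acetylation. Both GW3965 libraries scored at least 200 at 93 of the 921 GW3965-only sites (10.1%) and at least 300 at 12 of them. Both DMSO libraries scored at least 200 at 13 of the 319 DMSO-only sites (4.08%) and at least 300 at 2.

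GW3965-only sites lay near other sites of their kind more often than DMSO-only sites did. Of the 921, 143 (15.5%) had another GW3965-only site within 50 kb, and 20 of the 319 DMSO-only sites (6.27%) had another DMSO-only site that near. The larger set has more chances of a neighbour, and no test of this difference was made. Their distance to strong acetylation was alike: 307 GW3965-only sites (33.3%) and 100 DMSO-only sites (31.3%) lay within 10 kb of a site of all 4 libraries.

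LXRA sites covered more of the GW3965-only than of the DMSO-only sites. At 2 h of GW3965, LXRA sites overlapped 368 of the 921 GW3965-only sites (40.0%, 95% Wilson interval 36.8 to 43.2) and 26.6% of the DMSO-only sites. At sites of all 4 libraries the LXRA 2 h share was 40.2%, and over all 35090 sites 33.8%. GW3965-only sites thus met LXRA about as often as the far wider sites of all 4 libraries did. At 48 h the LXRA shares were 32.5% of GW3965-only, 27.3% of DMSO-only and 41.2% of all-4 sites. LXRA was found at both times at 248 GW3965-only sites, at 2 h only at 120 and at 48 h only at 51. The LXRA 2 h share was also high at sites seen in GW3965 replicate 2 alone (31.9%) and lower at sites seen in GW3965 replicate 1 alone (19.3%). It was higher than at GW3965-only sites at the 609 sites of DMSO replicate 1 and GW3965 replicate 2 alone (55.2%) and at the 627 sites of all libraries but GW3965 replicate 1 (53.4%), both of which have DMSO peaks. The LXRA share thus differed by library as well as between GW3965-only and DMSO-only sites. Wilson intervals cover counting error only, and sites of 1 library are not replicates, so no test was made over sites.

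LXRB and JunD sites were no more frequent at GW3965-only sites than over all sites. LXRB sites of 2 h overlapped 65 GW3965-only sites (7.06%, Wilson interval 5.58 to 8.90), 4.70% of DMSO-only sites and 14.4% of all-4 sites, and 9.30% of all 35090. LXRB sites of 48 h overlapped 15.2% of GW3965-only, 14.7% of DMSO-only and 29.0% of all-4 sites, and 20.0% of all 35090. JunD sites overlapped 14.0% of GW3965-only, 12.5% of DMSO-only and 20.6% of all-4 sites, and 5596 of all 35090 (Wilson interval 15.6 to 16.3%). For LXRB at both times and for JunD, the Wilson intervals of GW3965-only and DMSO-only sites overlapped. No LXR, JunD or RNAP2 site lay at 435 GW3965-only sites (47.2%), at 46.1% of DMSO-only sites and at 14.9% of all-4 sites.

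Sites of RNAP2, the enzyme that transcribes protein-coding genes, differed between the 2 kinds of site by the treatment in which RNAP2 was mapped. RNAP2 sites of DMSO overlapped 29.2% of GW3965-only and 45.5% of DMSO-only sites, against 54.4% of all 35090. RNAP2 sites of GW3965 overlapped 26.8% of GW3965-only and 19.4% of DMSO-only sites, against 42.7% of all 35090. At 52 GW3965-only sites (5.65%) RNAP2 was found in GW3965 and not in DMSO, and the same held for 1 DMSO-only site (0.313%). At 84 DMSO-only sites (26.3%) RNAP2 was found in DMSO and not in GW3965, and the same held for 74 GW3965-only sites (8.04%). Taken by library, peaks of RNAP2 GW3965 replicate 1 lay at 47.0% of GW3965-only sites and those of replicate 2 at 29.4%, with 35.4% and 35.7% for the DMSO replicates. RNAP2 GW3965 replicate 1 also met the most of the sites seen in H3K27ac GW3965 replicate 2 alone (39.1%, against 15.3% to 24.7% for the other 3 RNAP2 libraries). The RNAP2 and H3K27ac libraries of a group share their input, and the part of this in the shares was not tested.

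**Figure D3:**
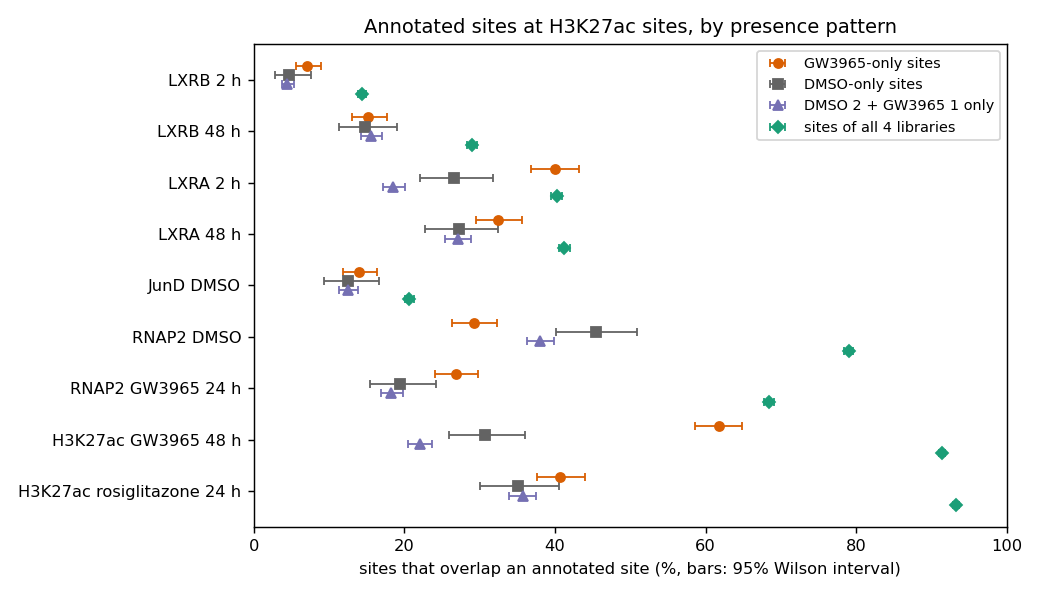
Share of H3K27ac sites that overlapped a site of each annotation, in percent, with 95% Wilson intervals (bars, counting error only). Orange circles are the 921 GW3965-only sites, dark grey squares the 319 DMSO-only sites, violet triangles the 2661 sites of DMSO replicate 2 and GW3965 replicate 1 alone, and green diamonds the 16069 sites of all 4 libraries. LXRA at 2 h met 40.0% of GW3965-only and 26.6% of DMSO-only sites; RNAP2 in DMSO met 29.2% and 45.5%; H3K27ac after 48 h of GW3965 met 61.8% and 30.7%.

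The strongest GW3965-only sites carried LXR more often than the weaker ones. Ranked by the lower of their 2 scores, the first 50 sites met LXRA at 2 h in 66%, LXRB at 48 h in 36% and RNAP2 of GW3965 in 50%. The 821 sites below rank 100 met LXRA at 2 h in 37.8%, LXRB at 48 h in 13.9% and RNAP2 of GW3965 at 205 of the sites. The first 50 sites were also wider, with a median of 2444 bp against 1683 bp in those 821, and a wider site has more room for any overlap. The first 50 DMSO-only sites met LXRA at 2 h in 30%, LXRB at 48 h in 10% and RNAP2 of GW3965 in 26%.

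The GW3965-only sites with the highest lower score are named here. The first, chr9:107722807-107724710, scored 557 in GW3965 replicate 1 and 462 in replicate 2. It overlapped LXRB sites at 2 h (scores 1324 and 1299 in the 2 replicates) and at 48 h (1120 and 694), LXRA sites at both times, and a JunD site (184 and 296). RNAP2 had a peak there in both GW3965 libraries (222 and 359) and in no DMSO library. This site thus joined both LXRs, JunD and a polymerase signal seen with the drug alone. The second, chr10:80853147-80856119, scored 427 and 520, and overlapped LXRA sites at both times and RNAP2 peaks of GW3965 (211 and 140), with no LXRB or JunD peak. The third, chr10:102098241-102102917, scored 1249 and 410, overlapped LXRB at 48 h (181 and 255) and LXRA at both times, and began 2.01 kb from a site of all 4 libraries. At the third, the 2 GW3965 replicates stood far apart.

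The other 5 of these 8 sites were less uniform. The site chr5:172113871-172117773 scored 393 and 745 and met LXRA at both times, with no LXRB, JunD or DMSO RNAP2 peak. The site chr18:55981567-55984341 scored 380 and 574, and no factor peak was found there in both replicates. A site on chromosome 8 of 1753 bp scored 383 and 379, had no LXR, JunD or RNAP2 peak, and lay 0.137 kb from a site of all 4 libraries. The site chr5:140899778-140902470 scored 372 and 416, and chr13:32554127-32557381 scored 366 and 392. Both of these last sites met LXRA, JunD and RNAP2 of DMSO and of GW3965, so polymerase was there without the drug. Of the 8 sites, 6 met LXRA at 2 h, 2 met LXRB at 2 h and 3 at 48 h, 3 met JunD, and 7 were also H3K27ac sites after 48 h of GW3965.

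LXRB sites of both 2 h and 48 h lay at 58 GW3965-only sites (6.30%). The 6 with the highest lower score all met LXRA at both times, RNAP2 of GW3965, and H3K27ac at 48 h, and 5 of the 6 met RNAP2 of DMSO. After chr9:107722807-107724710, the next was chr1:95548491-95551466, with H3K27ac scores of 585 and 359 and LXRB scores of 319 and 311 at 2 h and 668 and 693 at 48 h. The site chr6:7973706-7977217 scored 334 and 495 for H3K27ac and met JunD (489 and 650). The site chr20:4526005-4528658 scored 295 and 359 and met JunD (464 and 364). At these 3 sites, RNAP2 of DMSO scored between 230 and 801. The site chr7:27645514-27647355 scored 453 and 286, and RNAP2 there scored 234 and 219 in DMSO and 787 and 379 in GW3965. The sixth, chr9:107738913-107741136, scored 278 and 604, lay 14.2 kb from the first, and had RNAP2 scores of 181 and 176 in DMSO and 479 and 365 in GW3965. At the last 2 sites, and at that of chromosome 1, both GW3965 libraries of RNAP2 scored above both DMSO libraries in raw scores. Without scaling the same held at 684 of the 17308 RNAP2 sites with a peak in all 4 RNAP2 libraries (3.95%).

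The sites of 3 neighbourhoods, chosen after their values were seen, are given next. On chromosome 9, 5 sites lay between positions 107688025 and 107756979. The outermost, chr9:107752500-107756979, was found in all 4 libraries and scored 110 and 387 in DMSO and 3217 and 1402 in GW3965. Both GW3965 libraries were above both DMSO libraries there, and the peaks covered 1703 and 1988 bp in DMSO and 4037 and 4480 bp in GW3965. Its normalized log2 difference, GW3965 minus DMSO, was 3.63 (95% interval 2.24 to 5.01), with a limma p of 0.000425 that became 0.863 after adjustment over 16069 sites. The site at the other end, chr9:107688025-107691280, had no peak in DMSO replicate 1, 384 in DMSO replicate 2, and 2049 and 784 in GW3965. The 3 sites between them had no DMSO peak, but 1 of these, chr9:107730196-107731390, had a peak in GW3965 replicate 1 alone (183). LXRB at both times and LXRA at both times met 4 of the 5 sites, and the remaining one met LXRA.

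On chromosome 10, 6 sites lay between positions 102098241 and 102135810. The site chr10:102104932-102113013 scored 702 and 1626 in DMSO and 3100 and 2386 in GW3965, a normalized log2 difference of 0.97 (interval 0.32 to 1.63). Its covered bases were 4205 and 5410 in DMSO and 7857 and 8082 in GW3965. The site chr10:102118749-102120576 had a peak in GW3965 replicate 1 alone, at 196. The site chr10:102122100-102124003 was GW3965-only, at 636 and 192. Its neighbour chr10:102124004-102126330 had no peak in DMSO replicate 1, 106 in DMSO replicate 2, and 442 and 216 in GW3965. In raw scores both GW3965 libraries were above both DMSO libraries at chr10:102104932-102113013. Without scaling the same held at 14.4% of the 16069 sites of all 4 libraries. The GW3965-only site was defined by having no DMSO peak, so its groups could not overlap. Its neighbour had no score in DMSO replicate 1 to compare. The last site, chr10:102128434-102135810, scored 932 and 3100 in DMSO and 3100 and 2936 in GW3965, so its groups overlapped.

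On chromosome 17, 8 sites lay between positions 17677395 and 17760392. Both GW3965 libraries scored above both DMSO libraries at 2 of them, which were not next to each other, and the site between these 2 had a peak in DMSO replicate 2 and GW3965 replicate 1 alone (112 and 146). The widest, chr17:17720862-17731903, scored 189 and 457 in DMSO and 2719 and 1919 in GW3965, a normalized log2 difference of 2.64 (interval 1.62 to 3.66). Its limma p of 0.000473 became 0.863 after adjustment. Its peaks covered 2391 and 5419 bp in DMSO and 10877 and 8956 bp in GW3965. It met LXRB and LXRA at both times, JunD and RNAP2. The site chr17:17683734-17688448 scored 117 and 366 in DMSO and 1054 and 616 in GW3965, with no LXR or JunD site. The site chr17:17738165-17745984 scored 1053 and 2642 in DMSO and 3100 and 2582 in GW3965, and there the groups overlapped. The remaining 5 sites scored below 200 wherever they had a peak, and none of them had a peak in GW3965 replicate 2. Genes beside these neighbourhoods were not analysed here, since no gene annotation of the hg19 build was used.

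**Figure D4:**
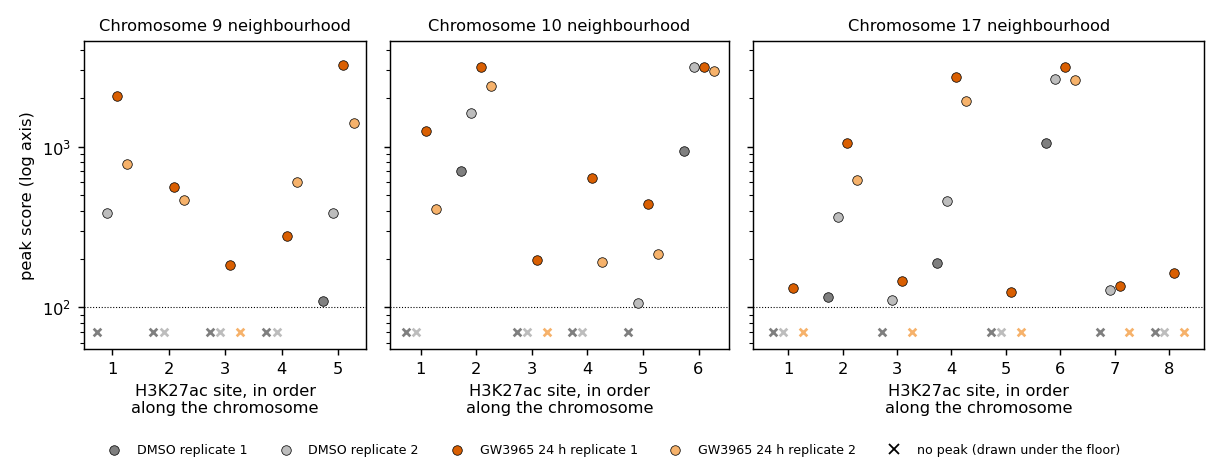
H3K27ac peak scores (log axis) at the sites of the 3 neighbourhoods on chromosomes 9, 10 and 17, numbered in order along the chromosome. Grey points are the DMSO replicates, orange points the GW3965 replicates, crosses mark libraries without a peak, and the dotted line is the lowest deposited score of 100. At the fifth site on chromosome 9 the DMSO libraries scored 110 and 387 and the GW3965 libraries 3217 and 1402; at the fourth on chromosome 17 the scores were 189 and 457 against 2719 and 1919.

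Of the 8 DMSO-only sites with the highest lower score, 1 met LXRB at 48 h and none at 2 h, and 7 met RNAP2 of DMSO. The first, chr2:197263718-197265688, scored 372 in DMSO replicate 1 and 357 in DMSO replicate 2. It had scores of 1180 and 881 in the rosiglitazone libraries of 24 h, so H3K27ac was present there with the PPARG agonist. The second, chr11:69250846-69253666, scored 303 and 469, and the third, chr9:127614888-127616060, scored 262 and 312 with no factor or RNAP2 peak. The site chr7:17562868-17565264 scored 322 and 251 and was the one that met LXRB at 48 h (690 and 528), with LXRA at both times, JunD, and RNAP2 in DMSO (830 and 875) and in GW3965 (377 and 357). Both RNAP2 libraries of GW3965 were below both of DMSO at that site in raw scores. Without scaling the same held at 6488 of the 17308 RNAP2 sites with a peak in all 4 RNAP2 libraries (37.5%). The remaining 4 were chr6:11315094-11317284 (237 and 261), chr14:103582052-103583493 (235 and 265), chr11:66749350-66754137 (229 and 413) and chr11:94371508-94374115 (215 and 435). Of the 8 sites, 3 met RNAP2 of GW3965, 4 met LXRA at 2 h, 1 met JunD and 4 were H3K27ac sites again at 48 h of GW3965.

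Scores and widths were then compared at the 16069 sites with a peak in all 4 libraries, after log2 transformation and quantile normalization. By limma, no site passed an adjusted p of 0.05 for a higher or a lower score (0% each), and the smallest adjusted p was 0.863. At an unadjusted p under 0.05, 330 sites (2.05%) were higher and 345 (2.15%) lower with GW3965. No site passed for width (0% each, smallest adjusted p 0.468), with 296 sites (1.84%) larger and 103 (0.641%) smaller at an unadjusted p under 0.05. The split between directions depended on the scaling. Without any scaling the median log2 score difference of all sites was 0.20, and the unadjusted counts were 113 higher and 4 lower for score and 260 larger and 23 smaller for width. The median 95% interval, not adjusted for the number of sites, reached 1.26 log2 units to each side for score and 0.45 for width. Smaller differences at single sites were thus not detectable with 2 libraries a group. Larger ones did not pass adjustment either, 3.63 in score at chr9:107752500-107756979 among them (adjusted limma p 0.863). The median size of the GW3965 minus DMSO difference in log2 score was 0.41. Between DMSO replicates it was 0.36, between GW3965 replicates 0.67, and between GW3965 replicate 1 and DMSO replicate 2 it was 0.32. The size between groups thus lay between those of the 2 replicate pairs. It is a difference of means of 2 libraries, so it is not on the same scale as differences of single libraries. Without GW3965 replicate 1, 772 sites were called higher and 668 lower, with 1 GW3965 library then assumed to vary as the DMSO libraries did; without DMSO replicate 2, 1 was called higher, and without either of the other 2 libraries none.

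Both GW3965 libraries scored above both DMSO libraries at 2669 of the 16069 sites (16.6%) and below both at 3367 (21%). The groups overlapped at the remaining 10033 sites. For width, 1557 sites (9.69%) had both GW3965 libraries above and 2449 (15.2%) below. In random order, 2 libraries against 2 separate in 1 direction or the other with a probability of 0.333. Non-overlap is thus frequent without any difference between groups, and these counts were not tested. It was more common downward after quantile normalization and the reverse without scaling, at 2321 above and 364 below for score and 2730 above and 265 below for width. Single-library differences from the DMSO mean reached from -3.05 to 4.02 log2 units in GW3965 replicate 1 and from -3.83 to 3.91 in GW3965 replicate 2.

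**Figure D5:**
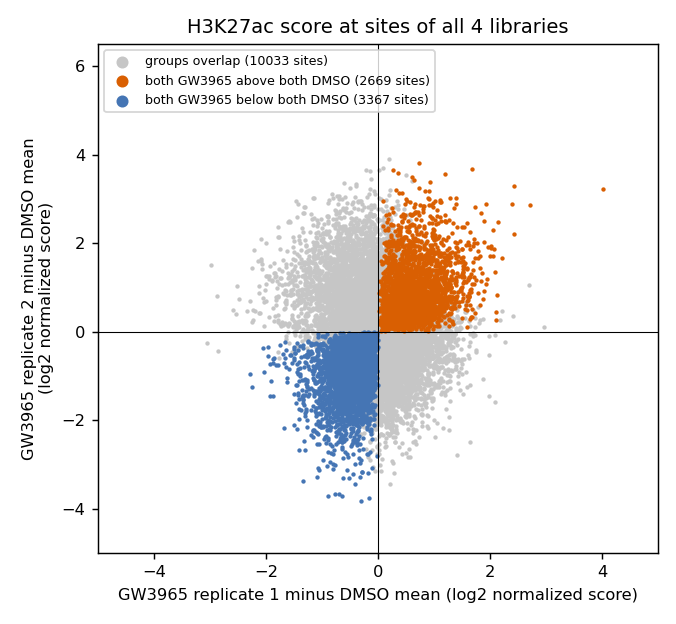
Normalized log2 score of each GW3965 library minus the DMSO mean, 1 point for each of the 16069 sites of all 4 libraries; replicate 1 is on the horizontal and replicate 2 on the vertical axis. Orange points are the 2669 sites with both GW3965 libraries above both DMSO libraries, blue points the 3367 sites with both below, and grey points the 10033 sites where the groups overlap. The point farthest to the right, at 4.02 and 3.23, is the site chr9:107752500-107756979.

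The sites with the smallest p in each direction were picked after their values were seen, and none passed adjustment. Besides the chromosome 9 and chromosome 17 sites above, the higher scores belonged to chr1:68279302-68286832 and chr5:148864425-148868070. The first of these scored 277 and 534 in DMSO and 2613 and 2082 in GW3965, a difference of 2.19 (interval 1.26 to 3.13). The other scored 120 and 204 in DMSO and 1683 and 825 in GW3965, a difference of 2.78 (interval 1.53 to 4.04). All 4 of these sites met LXRB and LXRA at both times. Of all 16069 sites, 13.1% met LXRB at both times and 31.6% met LXRA at both times. The lower scores were led by chr1:12534649-12542540, at 1507 and 2357 in DMSO and 1053 and 340 in GW3965 (difference -1.93, interval -2.81 to -1.05). Next came chr5:57748961-57758970, at 1668 and 3143 in DMSO and 1712 and 707 in GW3965 (difference -1.46, interval -2.13 to -0.80). In raw scores GW3965 replicate 1 lay between the DMSO libraries at this last site, and only the normalized values put it below both. Of these lower sites, chr1:12534649-12542540 also met LXRB and LXRA at both times. The site chr5:57748961-57758970 met LXRA at both times and LXRB at 48 h, and so did the next lower site, chr2:3380423-3385210. The lower site after it, chr1:209845837-209850645, met LXRA at 48 h only and no LXRB site. LXR sites thus lay at sites of both directions. LXRB at both times lay at all 4 higher sites and, of these lower ones, at chr1:12534649-12542540 alone, which was not tested.

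The sites with the smallest p for width were also picked after their values were seen. At the 4 given here with their covered bases, the groups lay farther apart than the 2 libraries of either group. The site chr14:103602660-103605733 was covered over 697 and 926 bp in DMSO and 2758 and 3074 bp in GW3965, a normalized log2 difference of 1.76 (interval 1.31 to 2.20). Its adjusted limma p was 0.468. The site met RNAP2 of DMSO and no LXR or JunD site. The site chr1:15513006-15518243 was covered over 1560 and 1698 bp in DMSO and 4299 and 4733 bp in GW3965, a difference of 1.34, and met LXRA at both times. On the smaller side, a site on chromosome 8 was covered over 14823 and 14707 bp in DMSO and 6995 and 7191 bp in GW3965, a difference of -1.18 (interval -1.49 to -0.88). The site chr2:40697880-40700238 was covered over 2220 and 2349 bp in DMSO and 830 and 975 bp in GW3965, a difference of -1.43. Both of these narrower sites met LXRB and LXRA at both times, JunD and RNAP2. Next by p on the larger side, chr2:134875810-134883643 and chr6:36280426-36291242 also met LXRB and LXRA at both times. Next on the smaller side, chr6:82646835-82650016 met LXRA at both times and LXRB at 48 h only. The site chr9:75664741-75667898, also smaller, met LXRA at both times and no LXRB site.

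By annotation, the score differences at sites of all 4 libraries were small at LXR sites and larger where RNAP2 was found with GW3965 only. The median log2 score difference over all 16069 sites was -0.03. At the 6459 sites with LXRA at 2 h it was 0.11, made up of -0.05 in GW3965 replicate 1 and 0.28 in replicate 2, so the replicates differed in sign. At the 2103 sites with LXRB at 2 h and 48 h it was -0.01 (-0.04 in GW3965 replicate 1 and 0.10 in replicate 2), with 16.5% of sites above and 15.7% below. At the 3316 JunD sites it was 0.04 (-0.04 and 0.16). In GW3965 replicate 1 all 3 medians were below the -0.01 of all sites, and in replicate 2 they were above its -0.05. Without scaling the medians of all, LXRA, LXRB and JunD sites were 0.20, 0.33, 0.26 and 0.29. At the 362 sites with RNAP2 in GW3965 and not in DMSO it was 0.37 (0.30 and 0.44 in replicates 1 and 2), with 35.9% of sites above and 6.63% below, and 0.57 without scaling. At the 2064 sites with RNAP2 in DMSO and not in GW3965 it was -0.09, with 12.1% above and 22.9% below, and 0.10 without scaling, which is under the 0.20 of all sites. Of the 2669 sites with both GW3965 libraries above, 45.7% met LXRA at 2 h and 69.5% met RNAP2 of DMSO, and of the 3367 below, 28.4% and 87.5% did. The all-4 background was 40.2% for LXRA at 2 h and 79.0% for RNAP2 of DMSO.

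RNAP2 scores, which played no part in choosing the H3K27ac sites, were fitted over 17308 RNAP2 sites with a peak in all 4 RNAP2 libraries. By limma, 6 (0.0347%) rose and 2 (0.0116%) fell with GW3965 at an adjusted p under 0.05. At 4 of the 6, both GW3965 libraries held the same score of 3100. At an unadjusted p under 0.05, 590 (3.41%) were higher and 657 (3.8%) lower. Without scaling, the median log2 difference of all RNAP2 sites was -0.39 and limma called none (67 higher and 1567 lower at an unadjusted p under 0.05), so directions here are relative to all RNAP2 sites. Both GW3965 libraries of RNAP2 were above both of DMSO at 3287 sites (19%) and below both at 3331 (19.2%), and without scaling at 684 and 6488. At the 199 RNAP2 sites that met a GW3965-only H3K27ac site, the median log2 difference was 0.35 (0.58 in RNAP2 GW3965 replicate 1 and 0.16 in replicate 2), with 78 (39.2%) above and 13 (6.53%) below. At the 60 that met a DMSO-only site it was -0.52 (-0.43 and -0.59), with 4 (6.67%) above and 26 (43.3%) below. At the 11251 that met a site of all 4 libraries it was -0.01, near the 0.00 of all RNAP2 sites. Without scaling the 3 medians were -0.06, -0.91 and -0.41, still above, below and close to that of all RNAP2 sites. RNAP2 thus differed in the direction of H3K27ac presence in both replicates, relative to all RNAP2 sites. The RNAP2 and H3K27ac peaks of a group were called against the same input, so their scores are not independent. The part of the input in this was not tested. Of these sites, 1 of the 199 and none of the 60 passed the adjusted limma test, whose unadjusted calls over all RNAP2 sites are given above. The calls rested on RNAP2 GW3965 replicates 1 and 2: without replicate 1, none rose and 18 fell, and without replicate 2, 846 rose and 876 fell. Without RNAP2 DMSO replicate 1, 6 rose and none fell.

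The 6 RNAP2 sites that rose included 3 in the neighbourhoods above. The site chr10:102105178-102113219 had RNAP2 scores of 220 and 648 in DMSO and 3100 in both GW3965 libraries (log2 difference 3.20, adjusted p = 0.00890 by limma). It met the H3K27ac site chr10:102104932-102113013. The site chr10:102121164-102127190 had RNAP2 scores of 604 and 742 in DMSO and 3100 in both GW3965 libraries (difference 2.34, adjusted p = 0.00890 by limma). It met the GW3965-only site chr10:102122100-102124003 and also chr10:102124004-102126330, which had an H3K27ac peak in DMSO replicate 2 (106). The site chr17:17710524-17732219 went from 311 and 743 to 3100 in both (difference 2.84, adjusted p = 0.00890 by limma). It met the widest chromosome 17 site and also the H3K27ac site of DMSO replicate 2 and GW3965 replicate 1 alone (112 and 146). Many peaks share the value of 3100 exactly, 445 of the 27701 of H3K27ac DMSO replicate 2 among them, so differences between peaks at that score are not resolved. At the 3 sites just given, the spread between the GW3965 libraries was therefore not measured, and their differences and p-values rest on scores that could not separate these libraries. The other 3, at chr4:11395038-11400275, chr17:80033472-80036554 and chr17:35437962-35444479, had no H3K27ac peak in any of the 4 libraries. Of the 2 that fell, chr21:42823146-42833780 had no H3K27ac peak. The other, chr3:122445714-122452087, had RNAP2 scores of 1374 and 1925 in DMSO and 118 and 123 in GW3965 (difference -3.39, adjusted p = 0.0101). Its H3K27ac scores were 157 and 186 in DMSO and 240 and 329 in GW3965, higher with the drug in raw scores. Without scaling the same held at 14.4% of the 16069 H3K27ac sites of all 4 libraries, whose median log2 difference was 0.20.

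GW3965-only sites were found again at 48 h about as often as all sites, and DMSO-only sites less often. H3K27ac sites of 48 h of GW3965 overlapped 569 of the 921 GW3965-only sites (61.8%, Wilson interval 58.6 to 64.9) and 30.7% of the DMSO-only sites. Over all sites they overlapped 21386 of 35090 (60.95%, Wilson interval 60.4 to 61.5%). The GW3965-only share was thus near that of all sites, and the DMSO-only share was below it. The share at 48 h went with GW3965 replicate 2 as well as with treatment. It was 51.7% at sites of DMSO replicate 1 and GW3965 replicate 2 alone and 53.0% at sites of DMSO replicate 2 and GW3965 replicate 2 alone, against 22.0% at sites of DMSO replicate 2 and GW3965 replicate 1 alone. At sites of a single library it was 28.1% for GW3965 replicate 2 and 15.5% for GW3965 replicate 1. For rosiglitazone at 24 h, an agonist of PPARG, the shares were 40.7% of GW3965-only and 35.1% of DMSO-only sites, with Wilson intervals that overlapped. Sites of all 4 libraries were found in 91.4% at 48 h of GW3965 and in 93.2% with rosiglitazone. Of the GW3965-only sites, 298 (32.4%) were sites of 48 h GW3965 and not of rosiglitazone, 104 (11.3%) the reverse, 271 (29.4%) both and 248 (26.9%) neither. Of the DMSO-only sites, 61 (19.1%), 75 (23.5%), 37 (11.6%) and 146 (45.8%) fell in the same classes. These libraries were not used to choose the sites.

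Seen from the receptors, most LXRB sites carried H3K27ac before and after the drug. Of the 3373 LXRB sites found at both 2 h and 48 h, 73.7% and 79.6% met a peak of DMSO replicates 1 and 2, and 80.9% and 77.0% met one of GW3965 replicates 1 and 2. All 4 libraries had a peak at 64.0% of them and no library at 10.8%. At 57 of these LXRB sites (1.69%) both GW3965 libraries and no DMSO library had a peak over the LXRB site itself. The reverse held at 11 (0.326%). Gain of a peak was thus seen at few LXRB sites, and the shares of the 2 groups overlapped. Of the 18389 LXRA sites of 2 h, 49.1% and 55.5% met H3K27ac in DMSO and 55.2% and 61.9% in GW3965. Of the 8960 JunD sites, 47.6% and 53.8% did in DMSO and 54.4% and 52.4% in GW3965. For both, the shares of the groups overlapped.

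At the 4 widest H3K27ac sites of DMSO-treated cells, the covered bases of the 2 groups overlapped. The first 2 were merged as chr17:46631595-46725800, 94206 bp, and all 4 libraries scored 3100 there. Its covered bases were 92275 and 94199 in DMSO and 93515 and 92934 in GW3965. The next, on chromosome 8, was 26011 bp wide, covered over 25759 and 25225 bp in DMSO and 23479 and 26011 bp in GW3965. The fourth, chr11:61721519-61745575, scored 2138 and 3100 in DMSO and 3100 and 1258 in GW3965 and was covered over 18926 and 23610 bp, then 22957 and 16821 bp. All of these sites met LXRB, LXRA and JunD sites.

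RNA-seq of the same line at 24 h, with 4 libraries each of DMSO and GW3965 and 30834003 to 51332656 counted reads a library, gave the levels of genes around H3K27ac and LXR. By edgeR's quasi-likelihood test at an adjusted p under 0.01, 406 of 21781 genes (1.86%) rose and 189 (0.868%) fell with GW3965, with a median log2 difference of -0.01. The contrasts of all 3 drugs share the DMSO libraries. Direct LXR targets, as a list, had 9 of 12 tested genes higher and none lower, with a median log2 difference of 1.51. ABCA1, the sterol exporter, went from 4.62 ± 0.28 to 113 ± 8.83 CPM, counts scaled to equal library totals (mean ± SD, n = 4), and every GW3965 library was above every DMSO library. ABCG1, also an exporter, went from 6.93 ± 0.64 to 177 ± 13.6 CPM. SCD, the fatty acid desaturase, went from 871 ± 19.4 to 3512 ± 98.1 CPM, and SREBF1, the lipogenic transcription factor, from 470 ± 44.4 to 1867 ± 422 CPM. In edgeR log2 differences these were 4.61, 4.67, 2.01 and 1.99, with adjusted p of 1.21e-17, 3.08e-18, 1.39e-16 and 6.05e-09. LXR target RNA thus rose by the hour at which H3K27ac was mapped with GW3965.

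The genes that write, remove and read acetylation were read from the same edgeR test, in which 1.86% of all 21781 genes rose and 0.868% fell. The lists are short, and their counts were not tested against these shares. None of the 4 writers passed in either direction. EP300, an acetyltransferase, had 90.6 ± 3.28 CPM in DMSO and 87.8 ± 6.34 CPM in GW3965 (log2 difference -0.04, SE 0.07). Of 12 erasers and corepressors, 1 rose and none fell: TBL1X, a subunit of the NCOR complex, went from 31.2 ± 3.03 to 41.7 ± 1.73 CPM (log2 difference 0.42, adjusted p = 0.00189 by edgeR). None of 8 readers and elongation factors passed, and POLR2A was not matched by its symbol. Of 7 genes of acetyl-CoA supply, 1 rose and none fell: ACSS2, acetyl-CoA synthetase, went from 16.5 ± 1.12 to 36.8 ± 1.87 CPM (log2 difference 1.16, adjusted p = 3.27e-07 by edgeR). ACLY, the citrate lyase, had a log2 difference of 0.29 and did not pass (adjusted p = 0.0608). The median over the 7 genes was 0.16, and the lists were chosen with results of these data known.

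Receptor and AP1 genes were read from this edgeR test too, beside the same shares of all genes, 1.86% higher and 0.868% lower. Of 8 receptors and partners, 1 rose and none fell: NR1H3, which encodes LXRA and is itself an LXR target, went from 71.9 ± 3.54 to 154 ± 13.1 CPM (log2 difference 1.10, adjusted p = 1.55e-08 by edgeR). NR1H2, which encodes LXRB, had 46.8 ± 2.58 CPM in DMSO and 50.3 ± 3.83 CPM in GW3965. Of 8 tested AP1 genes, 1 rose and none fell: ATF3 went from 3.46 ± 0.36 to 7.43 ± 0.89 CPM (log2 difference 1.10, adjusted p = 2.64e-06 by edgeR). JUND had 108 ± 6.99 CPM in DMSO and 125 ± 26.6 CPM in GW3965, with overlapping groups. The label of the cells was checked with marker genes. All 8 colorectal epithelial markers passed the filter, among them KRT8 at 9396 CPM and EPCAM at 338 CPM in DMSO. Of these 8, 2 rose and none fell with GW3965, KRT20 by a log2 difference of 0.83 and CEACAM5 by 0.71. Of 6 markers of other cell types, COL1A1 of fibroblasts had 4.39 CPM in DMSO and 5.22 CPM in GW3965, the leukocyte marker PTPRC, COL3A1, ALB and DES were at or below 0.119 CPM in both group means, with ALB at 0, and PECAM1 was not matched by its symbol. In bulk libraries, fewer cells with a mark or a transcript cannot be told apart from less of it per cell.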

How the data were processed

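The 4 H3K27ac libraries and the LXRB, LXRA, JunD, RNAP2 and further H3K27ac libraries were analysed from the deposited peak lists, 1 per replicate. Per the labels and the file headers, the authors aligned single-end reads to hg19 with Bowtie and called peaks with MACS in each library against an input; MACS writes a p-value p as a score of minus 10 log10 p, and these deposited scores were used as they stood. No tool version is given for either step. RNA-seq was analysed from the deposited count table; the submitters' processing notes name TopHat and Cufflinks. H3K36me3, PPARG and input libraries were not used here. The read depth of the ChIP-seq libraries is unknown. RNA libraries held 30834003 to 51332656 counts.

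Groups came from the sample labels. Peaks sharing at least 1 bp were merged with Python 3.11.15 (pandas 2.3.3, numpy 2.4.6). Scores and covered bases were log2 transformed, quantile normalized and compared with limma 3.58.1 (R 4.3.3, trended empirical Bayes, Benjamini-Hochberg adjustment, threshold 0.05, 2 residual degrees of freedom before moderation) at sites with a peak in all 4 libraries. A site that only 1 group had could not enter this test. Counts were tested with edgeR 4.0.16 (TMM, filterByExpr, quasi-likelihood test over all 16 libraries of 24 h, threshold 0.01). Gene symbols were matched to Ensembl identifiers through a gene name table. Both pipelines were tested on simulated data. No column of another series' samples was in the tables.

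Named sites were the 8 GW3965-only and the 8 DMSO-only sites with the highest lower score, up to 8 sites past the score test and 4 past the width test in each direction (none passed), the 6 GW3965-only sites with LXRB at 2 h and 48 h and the highest lower score, and the 4 widest DMSO sites. The comparison, its gene lists and these rules were chosen with earlier results of these data known. Sites named outside the rules are said to be chosen after their values were seen. Genes and sequences at the sites were not analysed here, since no hg19 genome or annotation was used. Replicate numbers did not pair the samples: deviations of same-numbered libraries from their group means correlated at -0.44 for H3K27ac score, -0.26 for width and 0.23 for RNAP2 score. The alternatives were other scalings, score minimums, overlap rules, DESeq2 1.42.0 for RNA, a replicate block, and leaving out each library in turn.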

Additional observations from a re-analysis of the deposited data

Results flagged for a closer look

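Gaps within groups of 4 RNA libraries were examined for 67 listed genes in 134 groups, by the distance of the highest or lowest library to its nearest neighbour over the range of the group. Chance marks about 1 in 20 groups, and 7 of 134 were marked, so the number is close to that. EP300 stood at 95.5 CPM in DMSO library 1, the highest, with a group median of 89.1. CDK7 stood at 16.3 CPM in DMSO library 4, the lowest, with a median of 18.9. RXRB stood at 43.4 CPM in DMSO library 4, the lowest, with a median of 44.4. NCOA2 stood at 40.5 CPM in GW3965 library 2, the highest, with a median of 38.0. NRIP1 stood at 46.7 CPM in GW3965 library 2, the highest, with a median of 44.7. JUND stood at 84.9 CPM in GW3965 library 1, the lowest, with a median of 136.5. EPCAM stood at 356 CPM in DMSO library 3, the highest, with a median of 332.5. The ChIP-seq groups of 2 libraries are too small for this examination.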

How the results depend on the processing

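The counts of gained and lost H3K27ac sites depended on how absence was defined and on single libraries. The gained count was 2996, fell to 1658 with equal numbers of peaks per library and to 921 when neither DMSO library might have a peak, and ran from 1138 to 9259 when 1 library was left out. The lost count was 3199, was 3945 with equal numbers of peaks per library, fell to 319 when neither GW3965 library might have a peak, and ran from 1005 to 8363 when 1 library was left out. limma calls for score were 0 under every scaling, score rule and replicate block tried (113 to 341 higher and 4 to 356 lower at an unadjusted p under 0.05), and 0 to 772 higher and 0 to 668 lower when 1 library was left out. Calls for width ran from 0 to 136 larger and from 0 to 63 smaller when 1 library was left out, and were 0 with the replicate block. The replicate block moved RNAP2 calls from 6 to 10 higher and from 2 to 9 lower, and the numbers share no stated origin. A crossed block, replicate 1 of a group with replicate 2 of the other, chosen after seeing the data, called 7 sites higher and 3 lower for score and 203 larger and 93 smaller for width. RNAP2 calls were 0 in both directions without scaling, and ran from 0 to 846 higher and from 0 to 876 lower when 1 library was left out. The share of gained sites with any LXR, JunD or RNAP2 site was 53.7%, 70.7% with annotation from either replicate and 69.0% with a score of at least 200; for lost sites it was 68.1%, 82.3% and 84.0%. DESeq2 called 313 genes lower against 189 by edgeR. The causes were not tested, except that fewer libraries or peaks entered where libraries or peaks were left out. Depth is unknown for ChIP-seq, so what it limits could not be given.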
